A study of Homo sapiens with 6 samples.

Results

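Among the 4101 genes of the deposited expression table, 83 are antisense RNAs that carry the name of another gene, and these were chosen only by their symbol, which ends in -AS or in -AS and a number. The gene that lends its name is called the sense gene here. It is also listed for 28 of the antisense RNAs, as 27 genes, since TSPEAR-AS1 and TSPEAR-AS2 share TSPEAR. The RNA came from SH-SY5Y, a human neuroblastoma line used as a dopaminergic cell model, labelled WT. Cells of the METH-treatment group received 2 mM methamphetamine (METH), a psychostimulant, for 24 h, and cells of the PBS-treatment group received PBS, with 3 libraries in each group. The time is day 0 in the sample labels, and the 24 h are those of the treatment protocol. The methods of the study name triplicates in each group, but do not say whether the 3 libraries of a group came from separate cultures, so the p-values measure the spread between these libraries, which may be technical.

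Antisense RNAs are transcribed from the DNA strand opposite to their sense gene. Many start beside the promoter of the sense gene and run away from it, since promoters often fire in both directions, and others lie across the body of the sense gene. A few are known to act on the neighbouring gene, most have no known role, and many are short-lived because the nuclear exosome degrades them.

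The table gives counts scaled to the reads of the library (CPM), without correction for gene length, under a heading of FPKM. The denominators recovered from the steps of the values ran from 85.7 (METH 1) to 110.77 (PBS 10), in units of 1e6 reads, and the genes of the table held 19.3 to 24.3% of them. In the p-value columns of the table, each gene has an unadjusted p below 0.1 for this contrast (largest 0.09998), while the adjusted p reaches 0.3833. The antisense RNAs below had therefore already passed a selection on this contrast. The text of the study names the adjusted p-value for its threshold, which is not what the columns show. Of 13 neuroblastoma markers, 5 are listed, among them GATA2, DDC, CHGB and SLC18A2, and these were detected in every library. GATA2 and DDC fell and CHGB and SLC18A2 rose in the same limma comparison as below. GATA2 was at 441 ± 57.1 CPM in PBS libraries. Values after ± are standard deviations between the 3 libraries of a group, and library values are given in the order PBS 10, PBS 11, PBS 12 and METH 1, METH 2, METH 3, after the columns of the table.

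The positions of the antisense RNAs relative to their sense genes were read from GENCODE release 29 (GRCh38). Of the 83, 60 lay head-to-head with the sense gene, on the opposite strand and with starts within 1 kb of each other. A further 21 overlapped it on the opposite strand with starts farther apart. The remaining 2, RPARP-AS1 and KRTAP5-AS1, have no sense gene of that name in the annotation. Exons of 54 antisense RNAs shared bases with exons of the sense gene, up to 2040 bases for SLC8A1-AS1, and 27 shared none. Whether reads were counted by strand is not given in the sources used here, so reads from shared bases cannot be assigned to a strand. In the annotation, 58 are typed as antisense, 14 as lincRNA, 9 as processed transcripts and 2 as transcribed pseudogenes.

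Promoter sequences of RefSeq (GRCh38.p14, 250 bases before to 50 after a start) were matched for 59 of the 83 antisense RNAs (73 promoters) and for 20 of the 27 sense genes (40 promoters). They were searched on both strands for the letters of the cAMP response element (CRE, TGACGTCA), the E-box (CACGTG) and the AP-1 site (TGACTCA), which do not overlap each other in the windows shown. The CRE letters occur in 1.85% of all 35116 promoters of the table, the E-box letters in 7.26% and the AP-1 letters in 4.95%. Counted by gene, with a match in any of its promoters, these are 2.25%, 8.77% and 6.05% of 27305 genes. Among the antisense RNAs, EMC3-AS1 and LIPE-AS1 hold the CRE letters, UNC5B-AS1 the AP-1 letters and ZNF529-AS1 the E-box letters. Among the 20 sense genes, ST7 and TMEM147 hold the CRE letters, 5 (GNAS, MCM8, RUSC1, ST7 and TMEM108) the E-box letters and GABPB1 and GNAS the AP-1 letters, which by promoter are 2, 5 and 2 of the 40. Windows of the other matches, among them all matches of the E-box letters, are not shown. The windows of 30 bases shown here are examples, those of EMC3-AS1, UNC5B-AS1, TMEM147 and ST7. All are written 5′ to 3′ on the strand of the gene, with the motif in capitals. They lie at chr3:9986844-9986873 (plus strand), chr10:71218351-71218380 (minus strand), chr19:35545546-35545575 (plus strand) and chr7:117020172-117020201 (plus strand). The last belongs to a start of ST7 inside the gene, away from the start it shares with ST7-AS1. The nearest starts of EMC3-AS1 and EMC3 lie 55 bases apart, and those of TMEM147-AS1 and TMEM147 92 bases apart. The letters of these 2 windows are therefore not assigned to 1 gene of the pair. A match is a description of letters and not a shown binding site.
EMC3-AS1 (CRE letters): ggcgcgaacgtTGACGTCAcgtcgtggcgc
UNC5B-AS1 (AP-1 letters): atgcctggtggTGACTCActgtctccacat
TMEM147 (CRE letters): cacgggctctcTGACGTCActgggcgcgac
ST7 (CRE letters): tgcagtgtcccTGACGTCAtccagcgtatg

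TPT1-AS1 and TPT1 are an example of a head-to-head pair whose starts overlap, and their first 26 bases are the 2 strands of the same DNA at chr13:45341345-45341370 (GRCh38, GENCODE release 29). They are shown to make plain how a head-to-head pair can share transcribed bases.
TPT1-AS1 (plus strand): gaggcggagacacaaggctccgttcc
TPT1 (minus strand): ggaacggagccttgtgtctccgcctc

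Antisense RNAs were more often lower than higher in METH-treated cells. In the limma comparison of log2(CPM + 0.1), at a Benjamini-Hochberg adjusted p under 0.1 across the 4101 genes, 22 of 83 (26.5%) rose and 43 (51.8%) fell, against 33.3% higher and 35.8% lower over the whole table. The remaining 18 did not pass the threshold. These adjusted p-values cover only genes already selected on this contrast, so they are too small as error rates over all tested genes. Counts adjusted over the 15724 genes implied by the authors' adjustment are given below. The log2 fold change was below 0 for 60 of the 83 (72.3%) and for 49.6% of all listed genes. The median was -0.77 for the antisense RNAs and 0.11 for the table. The values ran from -2.01 (DLG5-AS1) to 2.25 (STXBP5-AS1). The value nearest 0 was -0.32 among those below it and 0.59 among those above it, in a table selected on this contrast. In bulk RNA, fewer cells of a kind and less RNA per cell cannot be told apart.

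The other non-coding genes of the table had similar values. The 292 other genes typed as lincRNA, antisense or processed transcript had a log2 fold change below 0 in 72.3% and a median of -0.81. Protein-coding genes were below 0 in 46.5% of 3561. Low expression went with lower values too, since the 823 protein-coding genes within the middle range of antisense RNA levels (0.948 to 4.75 CPM) were below 0 in 60.5%, with a median of -0.55. The part of expression level in the difference was not tested.

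The groups of 3 libraries did not overlap for 21 antisense RNAs that were higher and 39 that were lower, against 31.0% and 33.0% of the table, or for 60 in either direction against 64.0%. Summed over the 83, antisense RNA came to 285.8, 299.9 and 289.6 CPM in the PBS libraries and to 279.9, 284.2 and 248 CPM in the METH libraries. Every METH sum was below every PBS sum, narrowly for METH 1 and METH 2, and METH 3 was the lowest. The genes of the table held 19.29% of the METH 3 reads and 22.98 to 24.33% of those of the other libraries. The sums are not corrected for this, and its part in the low METH 3 sum was not tested. The plot of log2 fold changes shows 82 of them in order.

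**Figure D1:**
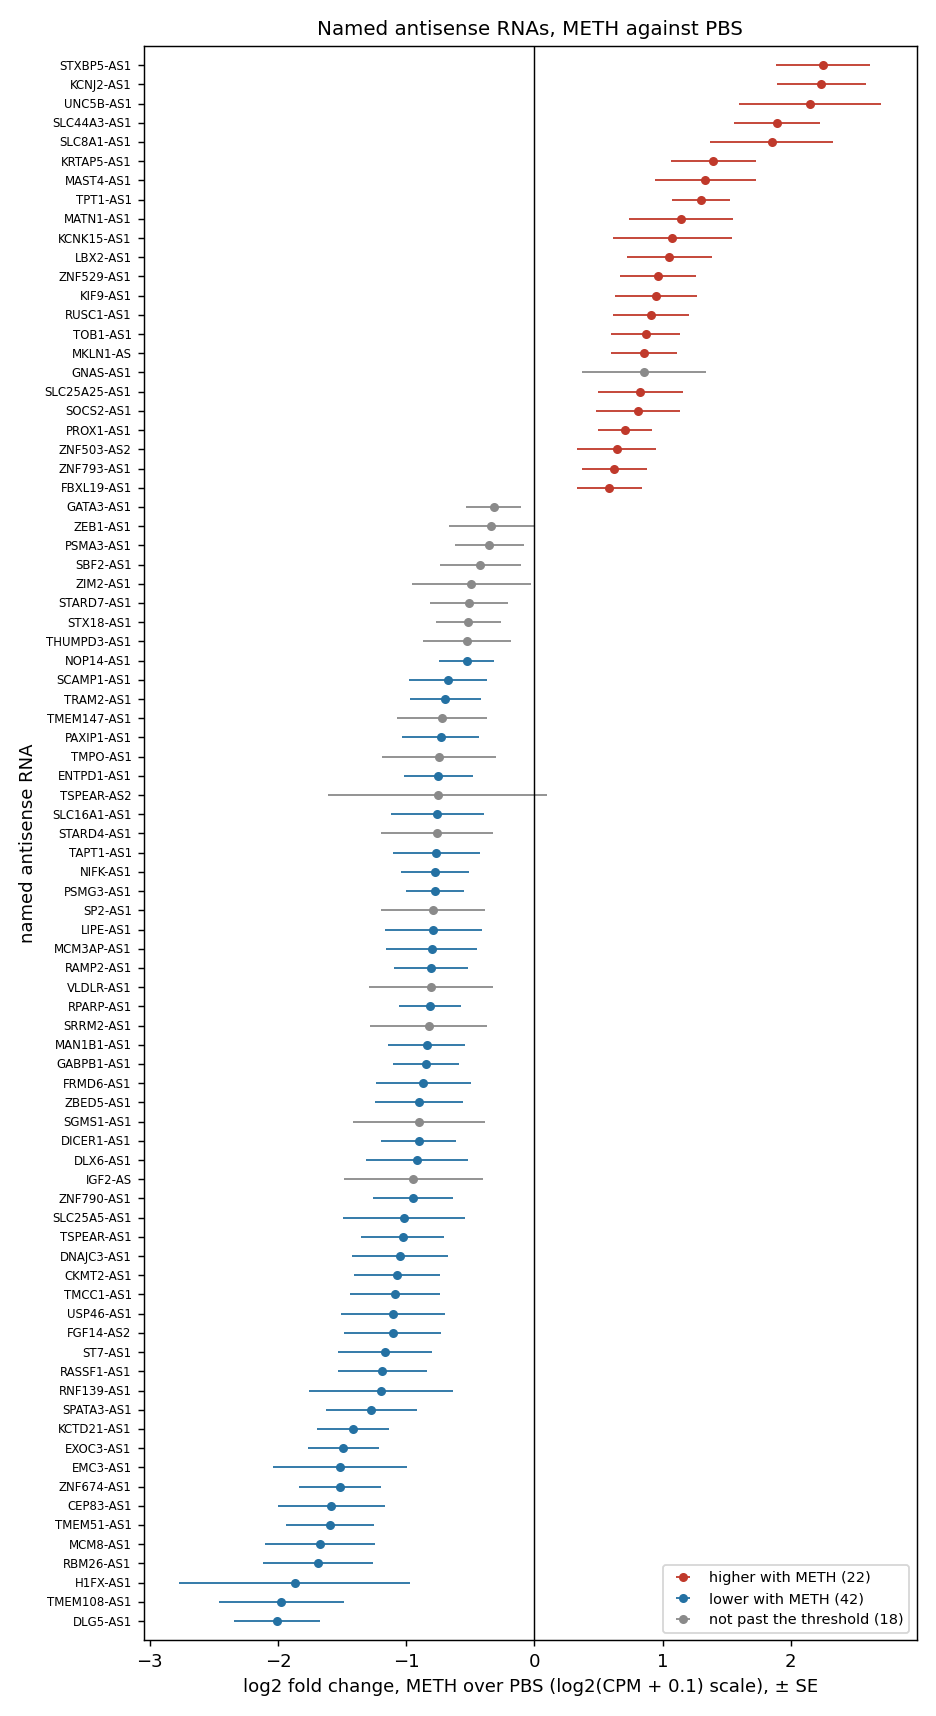
Log2 fold change (METH over PBS, on the log2(CPM + 0.1) scale, x axis) of 82 of the 83 named antisense RNAs (y axis, in order), with bars of 1 standard error from limma over 3 libraries a group. Red points (22) were higher and blue points (42) lower at an adjusted p under 0.1, and the 18 grey points did not pass.

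The counts depended on single libraries and on the number of genes adjusted for. Leaving out METH 2 left 8 antisense RNAs called higher and 18 lower, and 10.0% and 13.7% of the table. Leaving out METH 1 left 13 and 20 (12.0% and 15.3% of the table), and leaving out PBS 12 left 17 and 27 (18.2% and 20.8%). The calls of the whole table fell with the same libraries. At a threshold of 0.05, 15 antisense RNAs were called higher and 24 lower, against 17.0% and 19.1% of the table. Adjusted over the 15724 genes that the authors' own adjustment implies, 7 rose and 9 fell, where 7.71% of the table were higher and 7.49% lower. The 7 were STXBP5-AS1, KCNJ2-AS1, UNC5B-AS1, SLC44A3-AS1, SLC8A1-AS1, KRTAP5-AS1 and TPT1-AS1, and the 9 included DLG5-AS1, TMEM108-AS1, RBM26-AS1, MCM8-AS1, TMEM51-AS1, ZNF674-AS1, EXOC3-AS1 and KCTD21-AS1. Each of these 16 was also called by limma in all 6 fits that left out 1 library. On reads recovered from the CPM values, edgeR called 20 higher and 44 lower (28.4% and 39.9% of the table) and DESeq2 22 and 46 (32.7% and 40.3%). By limma, edgeR and DESeq2 together, 20 antisense RNAs were called higher and 39 lower, where 27.7% and 34.5% of the table were.

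Among head-to-head antisense RNAs, 17 of 60 rose and 30 fell, where 33.3% of the table were called higher and 35.8% lower. Among those overlapping the sense gene with distant starts, 4 of 21 rose and 12 fell. Of the 54 that share exonic bases with the sense gene, 17 rose and 22 fell, and of the 27 that share none, 4 rose and 20 fell. The difference between these groups was not tested.

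The larger rises and falls below were named only if past the threshold and without overlap between the groups. Their lack of overlap is thus a condition of the choice, and 64.0% of the whole table did not overlap either. The larger rises among antisense RNAs whose sense gene is not listed began with STXBP5-AS1. It lies head-to-head with STXBP5, which encodes tomosyn, a protein that binds syntaxin and restrains vesicle fusion. STXBP5-AS1 measured 0.253, 0.380 and 0.129 CPM in PBS libraries and 1.27, 1.86 and 1.45 CPM in METH libraries. Every METH library was above every PBS library, and the mean was 6.01-fold higher. The log2 fold change was 2.25 ± 0.37 (SE; adjusted p = 0.00825 by limma). UNC5B-AS1 lies within UNC5B, the gene of a netrin receptor that guides axons, and shares no exon with it. UNC5B-AS1 measured 1.32, 7.37 and 1.69 CPM with PBS and 11.98, 14.9 and 9.07 CPM with METH. PBS 11 stood above the other PBS libraries, and the groups did not overlap. Its log2 fold change was 2.15 ± 0.56 (adjusted p = 0.0246 by limma).

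KRTAP5-AS1 runs through a cluster of keratin-associated protein genes. It measured 4.92, 7.498 and 3.42 CPM with PBS and 14.1, 17.3 and 9.78 CPM with METH, again without overlap. The log2 fold change was 1.39 ± 0.33 (adjusted p = 0.0207 by limma). It shares 1047 exonic bases with KRTAP5-2 on the opposite strand, which had a log2 fold change of 1.85 (adjusted p = 0.116 by limma). MAST4-AS1, inside the gene of a microtubule-associated kinase, rose with a log2 fold change of 1.33, and PBS 10 was the highest PBS library at 1.16 CPM against 1.44 CPM in the lowest METH library. MATN1-AS1, beside the gene of the cartilage protein matrilin, had a log2 fold change of 1.14. LBX2-AS1, beside a homeobox gene, had 1.05. Their limma adjusted p-values were 0.0341, 0.05197 and 0.0393.

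MKLN1-AS lies inside the gene of muskelin, and PROX1-AS1 beside the gene of the homeobox factor PROX1. Both rose from higher PBS means than MAST4-AS1, MATN1-AS1 and LBX2-AS1. MKLN1-AS went from 3.77 ± 0.781 to 6.87 ± 1.01 CPM (log2 fold change 0.86, adjusted p = 0.0354 by limma). PROX1-AS1 measured 7.02, 7.43 and 7.87 CPM with PBS and 10.9, 13.6 and 12.2 CPM with METH (log2 fold change 0.71, adjusted p = 0.0339 by limma). The PROX1-AS1 libraries lay close together within each group and the groups did not overlap. Leaving out METH 2 ended the calls of MAST4-AS1, MATN1-AS1, LBX2-AS1, MKLN1-AS and PROX1-AS1, with limma adjusted p-values of 0.101, 0.155, 0.1399, 0.116 and 0.137. That of MATN1-AS1 also ended without PBS 10 (0.105) or METH 1 (0.107).

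The larger falls among antisense RNAs whose sense gene is not listed included those of RBM26-AS1, TMEM51-AS1, EXOC3-AS1, KCTD21-AS1, RASSF1-AS1, FGF14-AS2 and USP46-AS1. EXOC3-AS1 starts 2 bases from EXOC3, which encodes a subunit of the exocyst, the complex that tethers secretory vesicles. It measured 4.66, 3.94 and 5.06 CPM with PBS and 1.28, 1.97 and 1.46 CPM with METH. The groups were well apart, and the highest METH library (METH 2) was below the lowest PBS library (PBS 11). The log2 fold change was -1.49 ± 0.28 (adjusted p = 0.0103 by limma).

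KCTD21-AS1, which overlaps KCTD21 and shares 1184 exonic bases with it, went from 3.54 ± 0.728 to 1.25 ± 0.141 CPM. TMEM51-AS1 went from 1.68 ± 0.156 to 0.513 ± 0.192 CPM, and RBM26-AS1, beside the gene of an RNA-binding protein, from 1.48 ± 0.213 to 0.442 ± 0.299 CPM. The log2 fold changes of KCTD21-AS1, TMEM51-AS1 and RBM26-AS1 were -1.42, -1.59 and -1.69, with limma adjusted p-values of 0.0125, 0.01604 and 0.0237. RASSF1-AS1, which lies mostly in exons of the tumour suppressor gene RASSF1 (659 of its 790 exonic bases), had a log2 fold change of -1.19 (adjusted p = 0.0335 by limma). FGF14-AS2, inside the gene of a regulator of neuronal sodium channels, and USP46-AS1, beside a deubiquitinase gene, both had a log2 fold change of -1.10, with limma adjusted p-values of 0.0481 and 0.0564. For these 3, the call ended without METH 2 (RASSF1-AS1, 0.109), without PBS 12 (FGF14-AS2, 0.124) and, for USP46-AS1, without PBS 12 (0.103) or METH 2 (0.176), these being limma adjusted p-values.

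**Figure D2:**
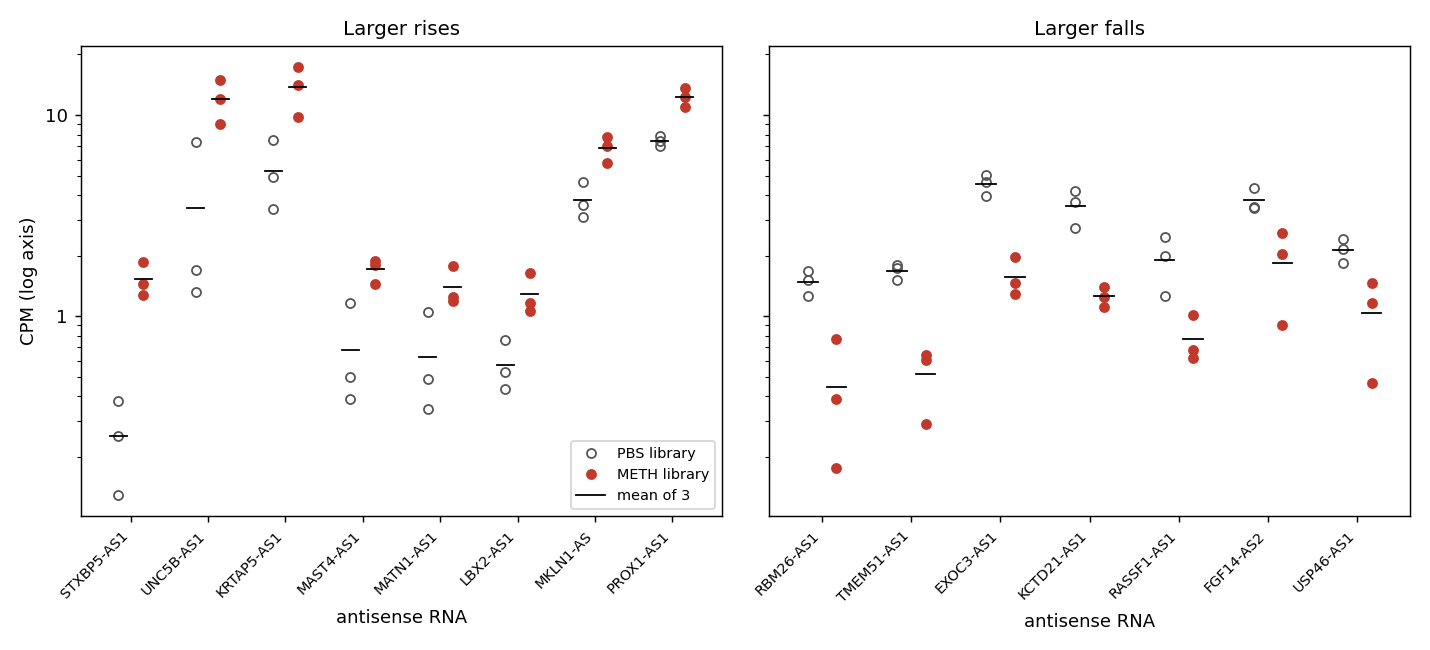
CPM (log axis) in each library for 8 larger rises (left) and 7 larger falls (right) among antisense RNAs whose sense gene is not listed. Open circles are PBS libraries, red circles METH libraries and bars the mean of 3. Only antisense RNAs without overlap between the groups were eligible, so the gap in all 15 comes from that choice.

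The most abundant antisense RNAs by CPM over the 6 libraries were GATA3-AS1, TPT1-AS1, ZNF793-AS1, PROX1-AS1 and STARD7-AS1. GATA3-AS1 starts beside GATA3, the gene of a transcription factor of sympathetic neuron identity. It measured 22.97, 19.4 and 28.1 CPM with PBS and 20.98, 17.9 and 17.1 CPM with METH. The groups overlapped and the log2 fold change of -0.32 did not pass the threshold (adjusted p = 0.189 by limma). ZNF793-AS1, beside a zinc finger gene, rose from 8.204 ± 1.098 to 12.9 ± 3.28 CPM (log2 fold change 0.62, adjusted p = 0.0695 by limma), a call that ended without PBS 12 (0.158), METH 2 (0.167) or METH 3 (0.179). STARD7-AS1, beside the gene of a lipid transfer protein, averaged 11.2 ± 3.72 CPM in the PBS and 7.79 ± 2.29 CPM in the METH libraries, with overlapping groups and a limma adjusted p of 0.146. This order uses the libraries of both groups, so a rise with METH moves an antisense RNA up in it. By the mean of the PBS libraries alone the first 5 were GATA3-AS1, STARD7-AS1, NOP14-AS1, ENTPD1-AS1 and TSPEAR-AS1, of which the last 3 fell with METH.

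The rule for naming took out the larger changes of abundant antisense RNAs and all listed pairs, so the 36 left outside it are a remainder shaped by that rule. Of these, 4 rose, with log2 fold changes of 0.59 to 0.95, and 22 fell, where 33.3% of the table rose and 35.8% fell. They were FBXL19-AS1, ZNF503-AS2, SLC25A25-AS1 and KIF9-AS1. The 22 had log2 fold changes of -1.87 to -0.53. They were H1FX-AS1, CEP83-AS1, ZNF674-AS1, SPATA3-AS1, TMCC1-AS1, CKMT2-AS1, SLC25A5-AS1, ZNF790-AS1, DLX6-AS1, ZBED5-AS1, FRMD6-AS1, RPARP-AS1, RAMP2-AS1, MCM3AP-AS1, LIPE-AS1, PSMG3-AS1, NIFK-AS1, TAPT1-AS1, ENTPD1-AS1, PAXIP1-AS1, SCAMP1-AS1 and NOP14-AS1. The lowest value, -1.87, is that of H1FX-AS1, whose groups overlap, and it ran from -3.15 to -1.19 with 1 library left out and was -0.74 by edgeR (adjusted p = 0.489). The limma call of TAPT1-AS1 ended in each of the 6 fits without a library (adjusted p up to 0.208). Of these 26 calls, 3 (CEP83-AS1, ZNF674-AS1 and RPARP-AS1) held in all 6 fits without a library. A further 8 held in 1 fit only, those of H1FX-AS1, SLC25A5-AS1, PAXIP1-AS1, SCAMP1-AS1, NOP14-AS1, FBXL19-AS1, ZNF503-AS2 and SLC25A25-AS1. The other 10 had log2 fold changes of -0.82 to -0.34 that did not pass, and were SRRM2-AS1, VLDLR-AS1, SP2-AS1, STARD4-AS1, THUMPD3-AS1, STX18-AS1, ZIM2-AS1, SBF2-AS1, PSMA3-AS1 and ZEB1-AS1.

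In the 28 pairs where the sense gene is also listed, antisense RNA and sense gene had log2 fold changes of the same sign in 19 (67.9%), 9 with both above 0 and 10 with both below 0. The same held for 64.8% of the 210 other pairs of listed genes that overlap or start within 1 kb of each other on opposite strands, so the share was near that background. In the remaining 9 pairs the antisense RNA was below 0 and the sense gene above 0 in 8, and the reverse held for KCNK15-AS1 alone. The sign agreed in 15 of the 20 pairs that share exonic bases and in 4 of the 8 that share none. Both genes of a pair are in the table because of this contrast, and the counts are a description. Across the 28 pairs, which come from the same 6 libraries, Pearson's r between the log2 fold changes was 0.581, and 0.466 over 27 pairs without KCNJ2-AS1. Of the 27 sense genes, 10 rose, 7 fell and 10 did not pass, where 33.3% of the table rose and 35.8% fell.

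Antisense RNAs were the scarcer partner in most pairs. Per kilobase of exon, the PBS level of the antisense RNA was below that of the sense gene in 23 of 28 pairs, and the sense gene was a median of 5.22-fold higher (range 0.0641 to 345).

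**Figure D3:**
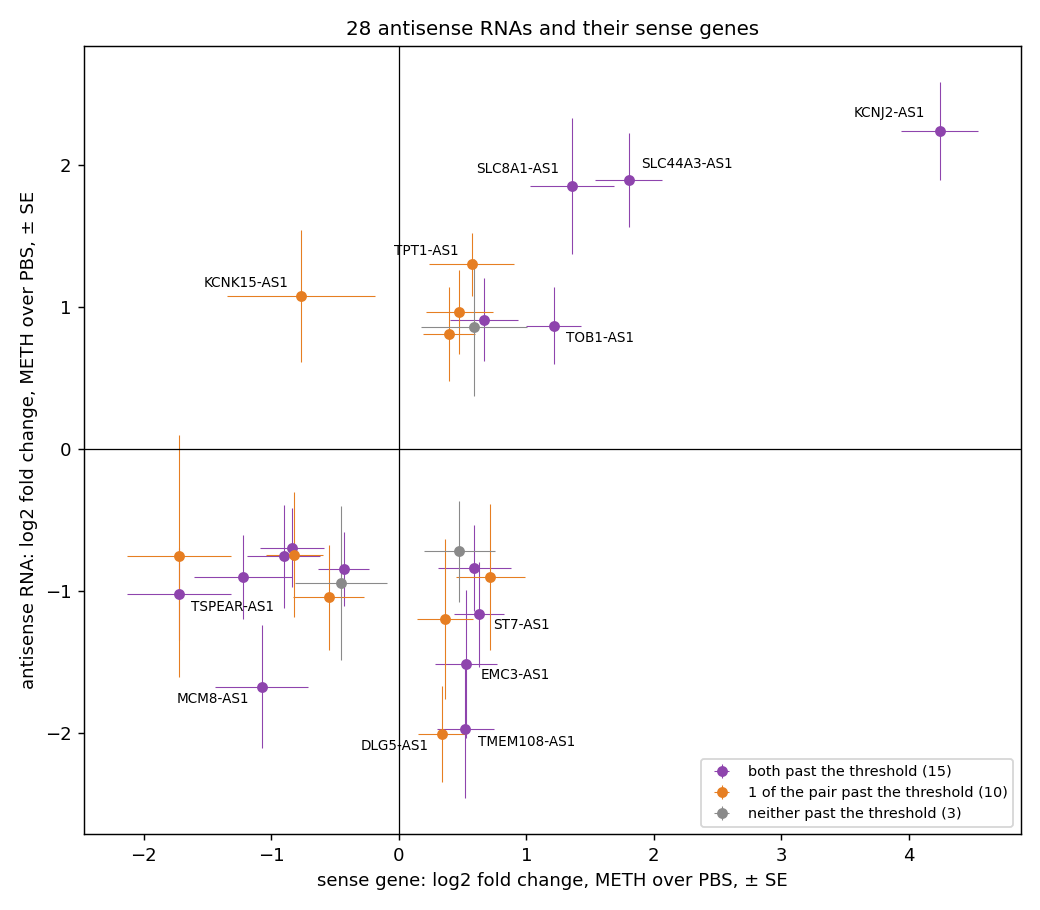
Log2 fold change of the antisense RNA (y axis) against that of its sense gene (x axis), METH over PBS, with bars of 1 standard error from limma (28 pairs). In 19 pairs the signs agree, and 8 of the other 9 lie at the lower right, with a lower antisense RNA beside a higher sense gene.

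In 5 pairs both genes rose. KCNJ2 encodes an inward rectifier potassium channel that holds the resting potential. Its antisense RNA, KCNJ2-AS1, starts 133 bases away on the other strand and shares 185 exonic bases with it. KCNJ2-AS1 measured 0.108, 0.0580 and 0.0970 CPM with PBS, which were 12, 5 and 9 reads, and 0.899, 0.914 and 0.570 CPM with METH. KCNJ2 measured 0.442, 0.334 and 0.666 CPM with PBS and 9.44, 10.2 and 12.3 CPM with METH. Both genes were near silent in the 3 PBS libraries and higher in each METH library. The means were 9.06-fold higher for the antisense RNA and 22.2-fold higher for the channel gene. The log2 fold changes were 2.24 ± 0.35 and 4.24 ± 0.30 (adjusted p = 0.00679 and 0.000355 by limma). With 0.1 CPM added to both genes, as in all log2 ratios here unless stated, the log2 ratio of antisense RNA to sense gene went from -1.60 ± 0.31 to -3.60 ± 0.53, without overlap between the groups. The added value is larger than the antisense RNA itself in 2 of the PBS libraries and widens that difference. Without it the log2 ratio went from -2.45 ± 0.38 to -3.77 ± 0.57, also without overlap. An exact permutation test over libraries, 2-sided, gave p = 0.1, the smallest that 3 against 3 can give.

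SLC44A3, a choline transporter-like gene, and SLC44A3-AS1 start 31 bases apart and share no exon in the annotation. SLC44A3-AS1 measured 1.26, 2.51 and 1.804 CPM with PBS and 8.44, 7.94 and 4.94 CPM with METH, and SLC44A3 2.26, 3.57 and 2.27 and 9.34, 9.27 and 9.72 CPM. The pair rose by similar factors, 3.82-fold and 3.501-fold, with log2 fold changes of 1.89 ± 0.33 and 1.80 ± 0.26 (adjusted p = 0.009104 and 0.005302 by limma). SLC8A1 encodes the sodium/calcium exchanger of the plasma membrane, and SLC8A1-AS1 runs across it and shares 2040 exonic bases. SLC8A1-AS1 measured 0.388, 0.207 and 0.333 CPM with PBS and 0.654, 1.34 and 2.69 CPM with METH, where METH 3 was the highest and METH 1 the lowest. SLC8A1 measured 1.201, 0.680 and 0.837 and 1.86, 2.46 and 3.103 CPM, in the same order of METH libraries. Fold changes on the log2 scale were 1.85 and 1.36 (adjusted p = 0.02496 and 0.0216 by limma).

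TOB1, the gene of an antiproliferative protein that recruits the deadenylase complex, went from 21.9 ± 3.86 to 50.8 ± 7.24 CPM, and TOB1-AS1 from 3.58 ± 0.509 to 6.72 ± 1.76 CPM. Log2 fold changes were 1.22 and 0.87 (adjusted p = 0.00913 and 0.0382 by limma). RUSC1, the gene of a neuronal adaptor protein, went from 57.02 ± 16.5 to 89.4 ± 17.5 CPM with overlapping groups, and RUSC1-AS1 from 2.299 ± 0.689 to 4.33 ± 0.709 CPM without overlap. Their log2 fold changes were 0.67 and 0.91 (adjusted p = 0.0679 and 0.0421 by limma). The call of TOB1-AS1 ended without METH 1 (0.135), that of RUSC1-AS1 without METH 1 (0.121) or METH 2 (0.138), and that of RUSC1 without PBS 10, PBS 12, METH 1 or METH 2 (up to 0.186), these being limma adjusted p-values. The calls of TOB1 and of both genes of the KCNJ2, SLC44A3 and SLC8A1 pairs held in all 6 fits without a library.

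In 4 pairs the antisense RNA fell while the sense gene rose. TMEM108 encodes a transmembrane protein of neurons, and TMEM108-AS1 lies inside it without sharing an exon. TMEM108-AS1 measured 1.201, 0.276 and 0.762 CPM with PBS and 0.117, 0.0440 and 0.122 CPM with METH. TMEM108 measured 35.02, 39.3 and 50.4 CPM with PBS and 67.7, 63.1 and 48.4 CPM with METH. The antisense groups did not overlap, while METH 3 of the sense gene lay below PBS 12. The antisense RNA was 7.91-fold lower and the sense gene 1.44-fold higher on average, with log2 fold changes of -1.98 ± 0.49 and 0.52 ± 0.22 (adjusted p = 0.0224 and 0.0776 by limma). The log2 ratio of antisense RNA to sense gene went from -5.78 ± 0.98 to -8.28 ± 0.50 with 0.1 CPM added, and from -6.02 ± 1.14 to -9.43 ± 0.95 without it.

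ST7, named as a suppressor of tumorigenicity, and ST7-AS1 start 57 bases apart and share 454 exonic bases. ST7-AS1 measured 0.831, 1.75 and 1.55 CPM with PBS and 0.607, 0.638 and 0.383 CPM with METH, and ST7 24.1, 30.4 and 28.5 and 46.3, 44.4 and 37.4 CPM. Neither gene overlapped between the groups, and the pair moved in opposite directions. The log2 fold changes were -1.16 ± 0.37 and 0.63 ± 0.20 (adjusted p = 0.0396 and 0.0388 by limma). EMC3 encodes a subunit of the complex that inserts membrane proteins into the endoplasmic reticulum. The promoter window of its antisense RNA, EMC3-AS1, holds the CRE letters shown above, and the nearest starts of the pair lie 55 bases apart. EMC3-AS1 measured 2.19, 0.818 and 0.784 CPM with PBS, with PBS 10 the highest, and 0.140, 0.660 and 0.336 CPM with METH. EMC3 measured 58.7, 97.5 and 83.7 and 128, 119.9 and 93.7 CPM, with PBS 10 the lowest. Fold changes on the log2 scale were -1.52 and 0.53 (adjusted p = 0.0482 and 0.09095 by limma).

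MAN1B1 encodes a mannosidase that marks misfolded glycoproteins for degradation. MAN1B1-AS1 measured 1.43, 1.25 and 1.33 CPM with PBS and 0.700, 0.892 and 0.551 CPM with METH, tight within groups and apart between them, and MAN1B1 16.2, 34.1 and 27.2 and 42.9, 38.2 and 31.6 CPM, with overlap. Log2 fold changes were -0.84 and 0.59 (adjusted p = 0.0542 and 0.0985 by limma). With 1 library left out, the log2 fold change ran from 0.29 to 0.83 for MAN1B1 and from 0.32 to 0.69 for EMC3. MAN1B1 did not pass by edgeR (adjusted p = 0.110) and did by DESeq2 (adjusted p = 0.0963). In each of these 4 pairs the log2 ratio of antisense RNA to sense gene was lower in every METH library than in every PBS library (exact permutation test, 2-sided, p = 0.1 for each). Of these 8 genes, only TMEM108-AS1 was called in all 6 fits without a library. Without METH 1 the limma adjusted p was 0.129 for ST7, 0.141 for EMC3-AS1, 0.237 for EMC3, 0.217 for TMEM108, 0.241 for MAN1B1 and 0.131 for MAN1B1-AS1. Without METH 2 it was 0.139 for ST7, 0.221 for EMC3, 0.206 for TMEM108, 0.207 for MAN1B1 and 0.102 for MAN1B1-AS1, and without PBS 12 it was 0.103 for ST7-AS1. Some of these calls also ended without PBS 10, PBS 11, PBS 12 or METH 3, and without PBS 10 the limma adjusted p was 0.223 for EMC3 and 0.266 for MAN1B1.

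In 4 more pairs the antisense RNA was below 0 and the sense gene above 0, but at least 1 of them did not pass. DLG5 encodes a scaffold protein of cell junctions and starts 846 bases from DLG5-AS1. DLG5-AS1, the largest fall of the 83 on the log2(CPM + 0.1) scale, measured 1.89, 1.13 and 1.58 CPM with PBS and 0.292, 0.396 and 0.224 CPM with METH. The highest METH library was well below the lowest PBS library, and the mean was 5.04-fold lower (log2 fold change -2.01 ± 0.34, adjusted p = 0.00866 by limma). DLG5 measured 28.5, 24.6 and 30.6 CPM with PBS and 34.3, 34.4 and 36.8 CPM with METH, without overlap but not past the threshold (log2 fold change 0.34, adjusted p = 0.1299 by limma). The log2 ratio of DLG5-AS1 to DLG5 was -4.12 ± 0.25 with PBS and -6.47 ± 0.36 with METH (without the added 0.1 CPM, -4.21 ± 0.27 and -6.89 ± 0.46).

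RNF139, the gene of an endoplasmic reticulum ubiquitin ligase, had a log2 fold change of 0.36 (adjusted p = 0.156 by limma), and RNF139-AS1 fell by 1.20 on the log2 scale with overlapping groups (adjusted p = 0.0935 by limma, and up to 0.249 with PBS 10, PBS 12, METH 1 or METH 2 left out). SGMS1, the gene of a sphingomyelin synthase, rose from 3.66 ± 0.895 to 5.97 ± 0.668 CPM (log2 fold change 0.72, adjusted p = 0.0595 by limma, and up to 0.166 with PBS 12 or any METH library left out). SGMS1-AS1 had a log2 fold change of -0.90 that did not pass (adjusted p = 0.137 by limma). TMEM147 encodes an endoplasmic reticulum membrane protein, and its promoter window holds the CRE letters. The nearest starts of TMEM147 and TMEM147-AS1 lie 92 bases apart. Their log2 fold changes were 0.48 and -0.72, neither past the threshold (adjusted p = 0.142 and 0.101 by limma). By DESeq2 TMEM147-AS1 did pass (adjusted p = 0.0808), while by edgeR it did not (adjusted p = 0.105).

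In KCNK15, a potassium channel gene of the tandem pore family, the order was the reverse. KCNK15-AS1 measured 0.506, 1.002 and 0.591 CPM with PBS and 3.198, 1.03 and 1.06 CPM with METH, with METH 1 far above METH 2 and METH 3. It rose with a log2 fold change of 1.08 ± 0.47 (adjusted p = 0.0795 by limma, and up to 0.256 with PBS 10, PBS 12, METH 1 or METH 2 left out). With 1 library left out, that log2 fold change ran from 0.57 to 1.34. KCNK15 measured 1.17, 6.74 and 3.75 CPM with PBS and 2.67, 1.94 and 1.103 CPM with METH, with overlap and a log2 fold change of -0.77 that did not pass (adjusted p = 0.2296 by limma). By DESeq2 KCNK15 was called lower (adjusted p = 0.0740), and by edgeR it did not pass (adjusted p = 0.109). The log2 ratio of KCNK15-AS1 to KCNK15 was higher in each METH library.

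TPT1-AS1 rose beside a sense gene that did not pass the threshold by limma. TPT1 encodes the translationally controlled tumour protein, one of the more abundant messages of many cells. TPT1-AS1 measured 6.82, 8.83 and 7.09 CPM with PBS and 21.98, 18.5 and 15.98 CPM with METH, and TPT1 1376, 2449 and 1656 and 2894, 2694 and 2356 CPM. The antisense groups were far apart, whereas METH 3 of TPT1 lay below PBS 11. The log2 fold changes were 1.30 ± 0.22 and 0.57 ± 0.33 (adjusted p = 0.00897 and 0.142 by limma). By DESeq2 TPT1 did pass (adjusted p = 0.0627), while by edgeR it did not (adjusted p = 0.115). The log2 ratio went from -7.86 ± 0.23 to -7.14 ± 0.09 with 0.1 CPM added, higher in each METH library (exact permutation test, 2-sided, p = 0.1).

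**Figure D4:**
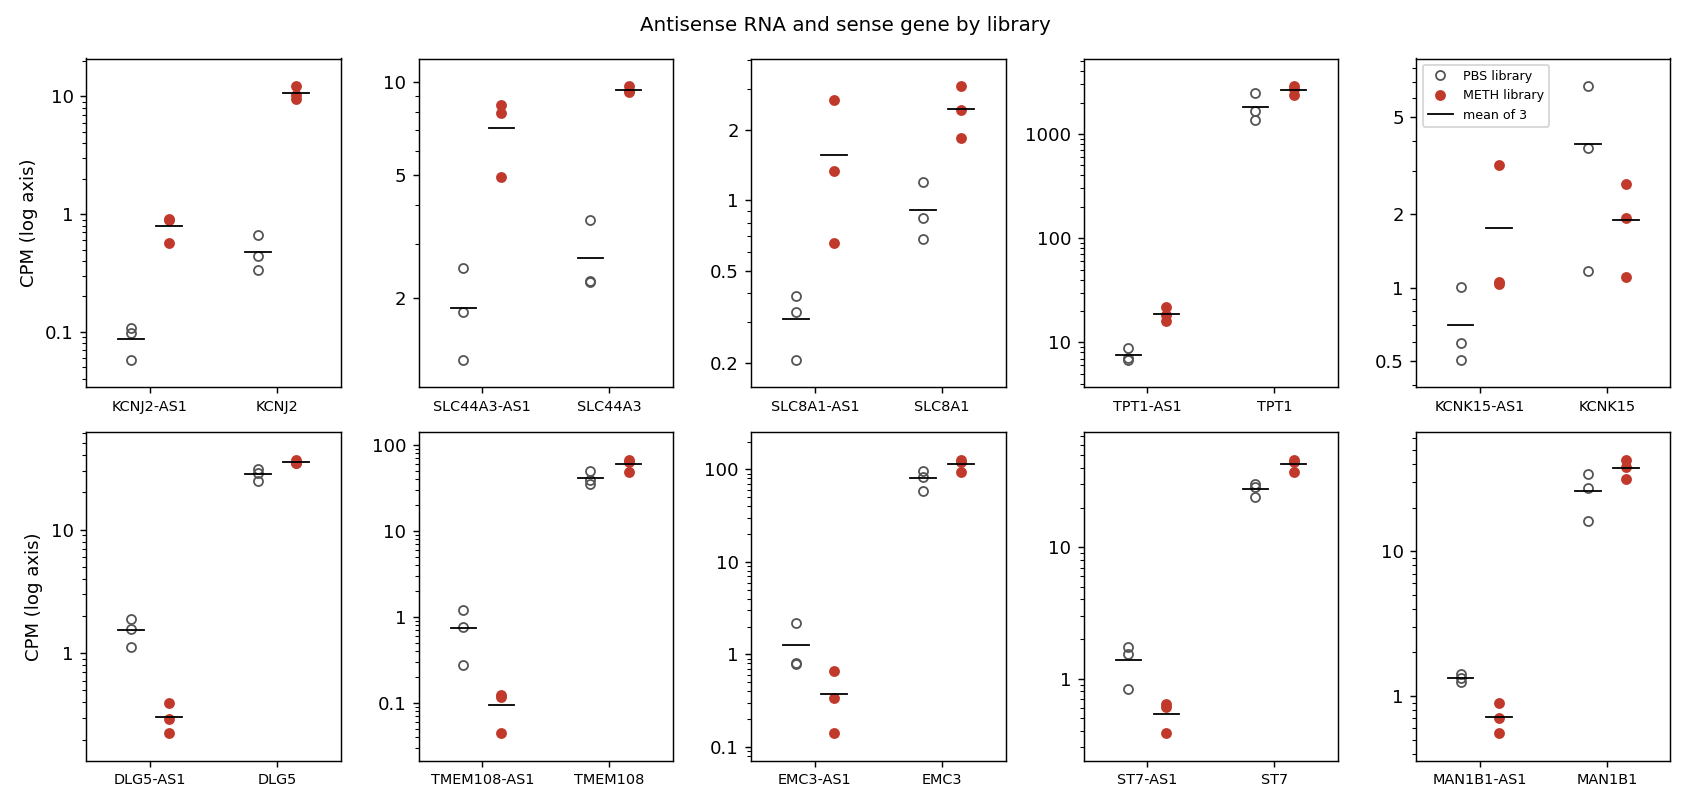
CPM (log axis, a scale of its own in each panel) in each library for 10 antisense RNAs (left in a panel) and their sense genes (right), with open circles for PBS, red circles for METH and bars for the mean of 3. CPM is not corrected for length, so groups are compared within a gene only, and the lower panels show 5 antisense RNAs below their PBS libraries beside sense genes with a higher METH mean.

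SOCS2-AS1 and ZNF529-AS1 likewise rose beside sense genes that did not pass. SOCS2-AS1, whose sense gene encodes a suppressor of cytokine signalling, had a log2 fold change of 0.81, and SOCS2 0.39 (adjusted p = 0.0711 and 0.116 by limma). The groups overlapped for SOCS2-AS1, whereas SOCS2 was higher in every METH library than in every PBS library. ZNF529-AS1 went from 5.51 ± 0.788 to 11.2 ± 3.67 CPM (log2 fold change 0.96), and the zinc finger gene ZNF529 had a log2 fold change of 0.47 (adjusted p = 0.0381 and 0.131 by limma). The call of SOCS2-AS1 ended without PBS 10, PBS 12, METH 1 or METH 2 (limma adjusted p up to 0.187), and that of ZNF529-AS1 without METH 1 or METH 2 (up to 0.134). GNAS, the gene of the stimulatory G protein subunit, and GNAS-AS1 come from an imprinted locus and share 1127 exonic bases. Their log2 fold changes were 0.59 and 0.86, neither past the threshold (adjusted p = 0.202 and 0.134 by limma), and PBS 10 was the lowest library for both.

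In 6 pairs both genes fell. DICER1 encodes the ribonuclease that cuts microRNAs from their hairpins and also cleaves double-stranded RNA. DICER1 measured 8.87, 3.34 and 4.67 CPM with PBS and 1.58, 2.51 and 2.56 CPM with METH, and DICER1-AS1 2.88, 4.12 and 2.405 and 1.62, 1.77 and 1.39 CPM. Neither gene overlapped between groups, and PBS 10 was the highest library of DICER1 but not of DICER1-AS1. Fold changes on the log2 scale were -1.22 ± 0.38 and -0.90 ± 0.30 (adjusted p = 0.0388 and 0.0428 by limma). MCM8, the gene of a helicase of recombination repair, fell from 5.22 ± 2.48 to 2.32 ± 0.666 CPM, and MCM8-AS1 from 1.82 ± 0.8499 to 0.4997 ± 0.240 CPM. Log2 fold changes were -1.08 and -1.67 (adjusted p = 0.0471 and 0.0244 by limma), and PBS 10 was the highest library for both.

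TSPEAR, the gene of a secreted protein with EAR repeats, measured 1.25, 1.21 and 0.913 CPM with PBS and 0.117, 0.473 and 0.299 CPM with METH. Its antisense RNA TSPEAR-AS1 measured 9.54, 11.9 and 6.27 and 4.38, 5.93 and 3.14 CPM. Both were lower in every METH library, with log2 fold changes of -1.73 and -1.03 (adjusted p = 0.0206 and 0.0393 by limma). The second antisense RNA of that gene, TSPEAR-AS2, had no read in PBS 10, which allows up to 3 reads or 0.0271 CPM by counting error alone, and 1.05 and 0.956 CPM in PBS 11 and PBS 12, and it did not pass (adjusted p = 0.408 by limma). TSPEAR-AS1 was the more abundant partner per kilobase of exon, at 3.93 CPM per kilobase in PBS libraries against 0.252 for TSPEAR.

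SLC16A1, the gene of a monocarboxylate transporter that carries lactate, fell from 25.2 ± 7.27 to 13.5 ± 4.25 CPM, and SLC16A1-AS1 from 2.12 ± 0.882 to 1.13 ± 0.0670 CPM. TRAM2, the gene of a protein of the translocation channel, fell from 4.60 ± 0.634 to 2.53 ± 0.333 CPM, and TRAM2-AS1 from 5.48 ± 0.937 to 3.38 ± 0.787 CPM. GABPB1, the gene of a subunit of an ETS transcription factor of mitochondrial genes, fell from 20.9 ± 0.975 to 15.5 ± 1.97 CPM, and GABPB1-AS1 from 5.95 ± 0.809 to 3.29 ± 0.663 CPM. The log2 fold changes of SLC16A1, TRAM2 and GABPB1 were -0.90, -0.84 and -0.43 (adjusted p = 0.0404, 0.0362 and 0.0889 by limma). Those of SLC16A1-AS1, TRAM2-AS1 and GABPB1-AS1 were -0.76, -0.70 and -0.85 (adjusted p = 0.0981, 0.06796 and 0.0366 by limma). In the GABPB1 pair, the antisense RNA fell further and their log2 ratio did not overlap between groups.

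Within these 6 pairs, MCM8-AS1, TSPEAR-AS1 and TSPEAR were called in all 6 fits without a library. Without METH 1, limma adjusted p-values were 0.117 for DICER1, 0.106 for DICER1-AS1, 0.136 for MCM8, 0.111 for SLC16A1, 0.113 for TRAM2, 0.206 for TRAM2-AS1 and 0.105 for GABPB1-AS1. Without METH 2, they were 0.103 for DICER1-AS1, 0.1197 for MCM8, 0.1403 for SLC16A1, 0.118 for TRAM2, 0.121 for TRAM2-AS1 and 0.135 for GABPB1-AS1. TRAM2-AS1 also lost its call without PBS 10 (0.137). PBS 12 of SLC16A1-AS1 lay within the METH range. SLC16A1-AS1 lost its call in 5 of the 6 fits and GABPB1 in 5, the limma adjusted p reaching 0.235 and 0.286.

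Besides TSPEAR-AS2, both values were below 0 without both passing by limma in 3 pairs. TMPO, the gene of a nuclear lamina protein, fell from 51.4 ± 12.8 to 28.6 ± 2.34 CPM (log2 fold change -0.82, adjusted p = 0.0284 by limma, and 0.102 without METH 2), and TMPO-AS1 had a log2 fold change of -0.74 (adjusted p = 0.147 by limma). DNAJC3-AS1, beside the gene of an endoplasmic reticulum co-chaperone, fell with a log2 fold change of -1.05 (adjusted p = 0.0525 by limma, and up to 0.166 without PBS 12, METH 1 or METH 2). DNAJC3 had -0.55 (adjusted p = 0.109 by limma), while edgeR and DESeq2 called it lower (adjusted p = 0.0861 and 0.0741). IGF2, an imprinted growth factor gene, and IGF2-AS did not pass by limma, and PBS 11 stood high for both. IGF2-AS measured 2.28, 13.6 and 5.56 CPM with PBS and 3.49, 2.98 and 2.25 CPM with METH, and IGF2 142, 313 and 115 and 108, 163 and 114 CPM (adjusted p = 0.139 and 0.257 by limma). The limma log2 fold change of IGF2-AS was -0.94, and -1.57 to -0.31 with 1 library left out. By edgeR and DESeq2, IGF2-AS was called lower (log2 fold changes -1.34 and -1.30, adjusted p = 0.0610 and 0.0216).

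The log2 ratio of antisense RNA to sense gene did not overlap between the groups in 10 of the 28 pairs, 8 of them lower with METH (KCNJ2, DLG5, TMEM108, EMC3, ST7, SGMS1, GABPB1 and MAN1B1) and 2 higher (KCNK15 and TPT1). Without the added value, over the 27 pairs with a read of both genes in each library, these did not overlap either, nor did MCM8 and DNAJC3, lower with METH, and TSPEAR-AS1 with TSPEAR, higher. That made 10 lower and 3 higher, against 41.1% of 207 other opposite-strand pairs. With the added value the share was 41.4% among the 210 other opposite-strand pairs. An exact permutation test over libraries gave p = 0.1 for each of the 10, before any adjustment over 28 pairs.

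Of a list of 34 genes of RNA decay and double-stranded RNA handling, 8 are in the table. Of these, 5 fell, 1 rose and 2 did not pass, where 35.8% of the table were lower and 33.3% higher, and 8 genes are too few to set the list apart. UPF1, the helicase of nonsense-mediated decay, fell from 40.9 ± 7.62 to 21.9 ± 2.51 CPM (log2 fold change -0.89, adjusted p = 0.0207 by limma), and EXOSC6, a core subunit of the exosome, from 9.203 ± 0.855 to 6.18 ± 0.312 CPM (-0.56, adjusted p = 0.0609 by limma). INTS3 and INTS9, subunits of the Integrator complex that ends short nuclear transcripts, had log2 fold changes of -0.75 and -0.61 (adjusted p = 0.0245 and 0.0463 by limma). DICER1, given above, was the fifth. C1D, a cofactor of the exosome, rose (log2 fold change 0.48, adjusted p = 0.0856 by limma), while ZCCHC8 and ADAR did not pass (adjusted p = 0.208 and 0.126 by limma). Their part in the levels of the antisense RNAs was not tested.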

How the data were processed

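RNA of 3 METH and 3 PBS libraries of SH-SY5Y cells was prepared with a SMARTER mRNA-Seq kit from total RNA. The authors deposited 1 table of 4101 genes from their DESeq2 comparison, in which each unadjusted p-value is under 0.1. Its columns are headed FPKM, but the deposited values are CPM, since 99.98% or more of the values in each library were whole multiples of the value of 1 read, and no gene length enters them. The columns with the authors' fold ratio, log2 fold change, p-value and adjusted p-value were deposited too. No value of them is used except the range of the p-values and the 15724 tested genes that the adjustment implies. Aligner, counter, strandedness and genome build are not given in the sources used here.

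Log2(CPM + 0.1) was compared with limma 3.58.1 (R 4.3.3), with a mean-variance trend, 2-sided, with Benjamini-Hochberg adjustment over all 4101 genes and a threshold of 0.1. Fold changes on this scale can understate the change of low genes. TSPEAR-AS2 went the other way, with a log2 fold change of -0.75 here and -0.15 with 0.01 CPM added. Folds of means are ratios of mean CPM. edgeR 4.0.16 (quasi-likelihood) and DESeq2 1.42.0 on recovered reads were alternatives. Other alternatives were another added value, a filter, no trend, another scaling, adjustment over 15724 genes, a threshold of 0.05 and leaving out each library. Antisense to sense ratios were compared by exact permutation over libraries after adding 0.1 CPM to both genes. The same ratio without an added value was an alternative chosen after the data were seen.

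All pairs with both genes listed are named, as are the 5 most abundant antisense RNAs. Of those past the threshold whose sense gene is not listed, the 8 largest changes in each direction are named. Either group had to average 1 CPM or more, and the groups could not overlap. PROX1-AS1 is named by both rules, as a larger rise and as one of the most abundant. The antisense RNAs and the lists were chosen with earlier results of these data known. Positions come from GENCODE release 29, the build of which may differ from that of the authors. Intervals from recovered reads cover counting error only. An antisense RNA and a marker gene are not reported here by name, and counts include them.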

Additional observations from a re-analysis of the deposited data

How the results depend on the processing

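Counts of called antisense RNAs and sense genes moved most with the libraries and the adjustment. With 1 library left out, antisense RNAs called higher numbered 8 to 21 and lower 18 to 40, and sense genes higher 4 to 14 and lower 2 to 7. Over the same fits, 10.0 to 37.8% of the table were called higher and 13.7 to 33.4% lower. The lowest counts came without METH 2 (antisense RNAs 8 and 18, sense genes 4 and 2), where 10.0% and 13.7% of the table were called, against 33.3% and 35.8% with all libraries. For sense genes, the counts without METH 1 were as low (4 and 2). Adjusted over 15724 genes, 7 antisense RNAs were higher and 9 lower, and 4 sense genes were higher and 1 lower (7.71% and 7.49% of the table). At a threshold of 0.05, 15 antisense RNAs were higher and 24 lower (17.0% and 19.1% of the table), and 5 sense genes were higher and 6 lower. edgeR called 20 antisense RNAs higher and 44 lower (28.4% and 39.9% of the table), and DESeq2 22 and 46 (32.7% and 40.3%). In each setting that kept all 28 pairs, 19 had the same sign, and 13 of 16 did with a minimum of 1 CPM. Of 1095 values of named genes under alternatives, 916 kept their direction and side of the threshold, 152 lost the call, 27 gained one and 0 changed sign. Without a value added before the ratio of antisense RNA to sense gene, 10 pairs lay apart between groups with a lower ratio and 3 with a higher one, against 8 and 2. No paired analysis was possible because the PBS columns carry numbers that match no replicate number of the labels. Antisense RNAs held 0 to 2614 reads per library.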

Other observations

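Some antisense RNAs had 1 library far from the others of its group, and they were chosen here after their values were seen. H1FX-AS1, beside a linker histone gene, was at 0.245 and 0.286 CPM in METH 1 and METH 2 but at 5.14 CPM in METH 3, above the 3.61, 2.20 and 3.90 CPM of the PBS libraries. Its limma adjusted p was 0.0976, and its call ended in 5 of the 6 fits without a library. VLDLR-AS1, beside the gene of a lipoprotein receptor, measured 1.48, 5.78 and 1.75 CPM in the PBS libraries and 1.59, 1.55 and 1.05 CPM in the METH libraries. PBS 11 was thus the high library for VLDLR-AS1, as for IGF2-AS.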
